A study of Mus musculus with 3 samples.

Results

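Expression of 8 genes of MHC class I antigen presentation was followed in cultured mouse neurons: the heavy chain genes H2-K1, H2-D1 and H2-T23, the light chain gene B2m, the peptide transporter genes Tap1 and Tap2, the tapasin gene Tapbp and the peptide-trimming enzyme gene Erap1. The members were taken by gene symbol, and all 8 were found among 47593 gene rows. RNA sequencing had been done on 3 libraries of primary hippocampal neurons from wild-type (WT) mice, replicates 1, 2 and 3 of a single group that had received fresh medium with B27 and penicillin-streptomycin, after growth in Neurobasal that held B27 and GlutaMAX. The libraries held 18683923 to 18885650 reads. The series also concerns neurons given apoE particles over 24 h, an arm not analysed here, and each result describes a level, a ratio within a library or the spread between libraries. Strain, age and sex of the mice are not stated in the labels, nor do they say that the libraries came from separate cultures, and the spread between them, with every p-value resting on it, may therefore be technical.

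Class I molecules consist of a heavy chain and the light chain beta-2-microglobulin, and they display peptides from the cell's own proteins at its surface. The peptides are cut by the proteasome, carried into the endoplasmic reticulum by the transporter that TAP1 and TAP2 form together, trimmed there by ERAP1, and placed in the groove of the heavy chain with the help of tapasin, which ties the empty molecule to the transporter. H2-K and H2-D are the classical heavy chains, which present peptides to CD8 T cells; H2-T23 encodes Qa-1, a nonclassical heavy chain recognised by inhibitory receptors of natural killer cells. In neurons class I genes are known for low levels at rest, for induction by interferon and for a part in the pruning of synapses during development.

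Of the 8 genes, 6 lie on mouse chromosome 17 within 2.12 megabases of the H2 region (GRCm38, GENCODE M21). Tapbp spans 33915899 to 33929292, H2-K1 33996017 to 34000347, Tap1 34187553 to 34197225, Tap2 34203527 to 34216321, H2-D1 35262730 to 35267499 and H2-T23 36029773 to 36032855. Between Tap1 and Tap2 lie 6301 bases. B2m lies on chromosome 2, from 122147686 to 122153083, and Erap1 on chromosome 13, from 74639568 to 74693201.

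Promoter sequences are shown because the classical heavy chain genes and B2m are textbook targets of NF-kB and interferon factors. RefSeq start sites of GRCm38.p6 were found for 7 of the 8 members; Tap2 had no match. In the 250 bases upstream of the start, both strands were searched for the core of the interferon-stimulated response element (GAAA, any 2 bases, GAAA), for a kB-type motif (GGG, any 2 bases, TT, any 1 base, CC) and for the Y box (CCAAT). The windows upstream of H2-K1 and B2m are given here 5′ to 3′ on the gene's own strand, with every match in capitals.
H2-K1, chr17:34000348-34000597, minus strand: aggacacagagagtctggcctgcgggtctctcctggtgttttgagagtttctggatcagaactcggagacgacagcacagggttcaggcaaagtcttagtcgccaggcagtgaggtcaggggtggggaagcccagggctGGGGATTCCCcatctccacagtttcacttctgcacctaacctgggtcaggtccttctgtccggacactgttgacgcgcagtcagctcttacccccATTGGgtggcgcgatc
B2m, chr2:122147437-122147686, plus strand: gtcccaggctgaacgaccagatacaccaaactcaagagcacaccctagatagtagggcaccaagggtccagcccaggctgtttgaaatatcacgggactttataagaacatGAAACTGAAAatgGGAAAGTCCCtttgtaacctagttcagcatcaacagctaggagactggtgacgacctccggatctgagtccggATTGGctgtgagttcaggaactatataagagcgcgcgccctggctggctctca

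The kB-type motif was present upstream of 3 members, H2-K1, H2-D1 and B2m, against 4.11% of all 32851 RefSeq promoters. The interferon-stimulated core was present upstream of B2m and H2-T23, against 2.98% of promoters, and the Y box upstream of 6 members, against 33.8% of promoters. No match overlapped another. Upstream, here and below, means upstream of the RefSeq start, which can differ from the GENCODE span given above. The H2-D1 kB-type match and the H2-T23 interferon-stimulated match lie within the GENCODE spans of their genes. So do the whole upstream windows of H2-D1, Tapbp and Erap1. Stretches of 30 bases, with the match in capitals, show how closely the classical heavy chain genes resemble each other there.
H2-K1, kB-type, chr17:34000439-34000468, minus strand: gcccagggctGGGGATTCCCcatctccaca
H2-D1, kB-type, chr17:35262913-35262942, plus strand: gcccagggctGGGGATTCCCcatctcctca
B2m, kB-type on the reverse strand, chr2:122147551-122147580, plus strand: actgaaaatgGGAAAGTCCCtttgtaacct
B2m, interferon-stimulated core, chr2:122147538-122147567, plus strand: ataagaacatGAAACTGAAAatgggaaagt
H2-T23, interferon-stimulated core on the reverse strand, chr17:36032806-36032835, minus strand: atcctactgcTTTCTCTTTCataaagacac
When the upstream windows of H2-K1 and H2-D1 were set side by side on this kB-type match, 166 of 190 bases were identical (87.4%), with 47 in the longest identical run. A match describes letters in a window and does not show that a factor binds there.

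Of the 3 heavy chain members H2-D1 had the highest level. The gene had 641, 589 and 623 reads in replicates 1, 2 and 3, which is 34.1, 31.5 and 33.0 CPM (counts per 1000000 reads) and 32.9 ± 1.31 CPM as mean ± SD (n = 3). H2-K1, the other classical heavy chain, had 104, 112 and 112 reads and 5.82 ± 0.25 CPM (SD, n = 3). These reads, here and throughout, were recovered from the deposited log2 values, in which the spread between libraries is shrunken. The libraries lay close together for both genes, and no library of H2-K1 came near any library of H2-D1.

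H2-T23 was almost silent. It had 5, 0 and 5 reads, or 10 in all, a level of 0.177 CPM with an exact Poisson 95% interval of 0.0851 to 0.326 CPM. Absence of reads in replicate 2 still allows up to 0.161 CPM there, the value of 3 reads; interval and limit cover counting error only. The deposited log2 values were 1.733, 1.729 and 1.733 in replicates 1, 2 and 3, so that little of the difference between 5 and 0 reads remains in them. H2-T23 was the only member below 1 CPM, the level at or above which a gene was called detected in a library. The other 7 members were detected in every library, as were 58.3% of protein-coding genes and 28.7% of all gene rows.

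Set against each other per kilobase of exon, H2-D1 exceeded H2-K1 in each of the 3 libraries. The ratio was 2.42 ± 0.10 log2 units (SD, n = 3), or 5.34-fold. In log2 units it was 2.63 with 0.1 and 1.35 with 5 added to each level, in place of the 0.5 used for ratios. H2-D1 made up 87.0%, 85.7% and 85.8% of the summed level per kilobase of the 3 heavy chain members. Of the sum over these and 18 further heavy chain genes of the H2 region it made up 52.5%, 50.5% and 51.6%. H2-T23 lay below H2-D1 (−4.56 ± 0.09 on the log2 scale) and below H2-K1 (−2.15 ± 0.18). With so few reads these H2-T23 ratios depend on the 0.5 added to each level: with 0.1 added they were −6.38 and −3.75, and with 5 added −1.81 and −0.46.

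Near-identical sequence limits what can be said of heavy chain genes. Of the 50-base stretches of the longest coding transcript, 29.8% for H2-T23, 14.3% for H2-D1 and 8.79% for H2-K1 also occurred in transcripts of other genes, other H2 genes among them, against none for B2m. Reads from such stretches can be lost or assigned to another gene, and heavy chain levels are uncertain at least to that extent. The strain is not stated in the labels, and whether reads were lost where its heavy chain alleles differ from the reference genome was not tested, which bears on each heavy chain level and ratio given here.

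B2m was the highest member. Its reads numbered 1038, 1084 and 1122, or 55.3, 58.0 and 59.4 CPM (mean 57.6 ± 2.11, SD, n = 3), and the deposited log2 values were 10.06, 10.08 and 10.09. Per kilobase it reached 66.9 ± 2.45 CPM, above 95.6% of the 12595 detected protein-coding genes, whose median was 6.81 CPM per kilobase. H2-D1 (12.7 ± 0.51 CPM per kilobase) lay above 68.4% of these genes, H2-K1 (1.98 ± 0.08) above 20.9%.

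Per kilobase, the light chain therefore outweighed the heavy chains at the level of mRNA. B2m exceeded H2-D1 by 2.35 ± 0.10 log2 units, a 5.09-fold ratio, and H2-K1 by 4.76 ± 0.02, a 27.2-fold ratio (SD, n = 3). With 5 added the log2 ratios to H2-D1 and H2-K1 were 2.02 and 3.36, and with 0.1 added 2.38 and 5.01. The same log2 ratios were 2.06 and 4.23 with the longest transcript as length, and 0.80 and 3.20 without length scaling. B2m was 4.23, 4.73 and 4.64 times the sum of the 3 heavy chain members per kilobase, and 2.71 ± 0.14 times the sum of these and the 18 further heavy chain genes of the H2 region that were looked up. The ratios to these sums depend on length, and no other length was tried for them. B2m has 860 exon bases, against 2579 for H2-D1 and 2938 for H2-K1. Over H2-T23 the ratio was 6.91 ± 0.16 on the log2 scale with 0.5 added to each level, and it ran from 3.83 to 8.76 with 5 and 0.1 added.

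**Figure D1:**
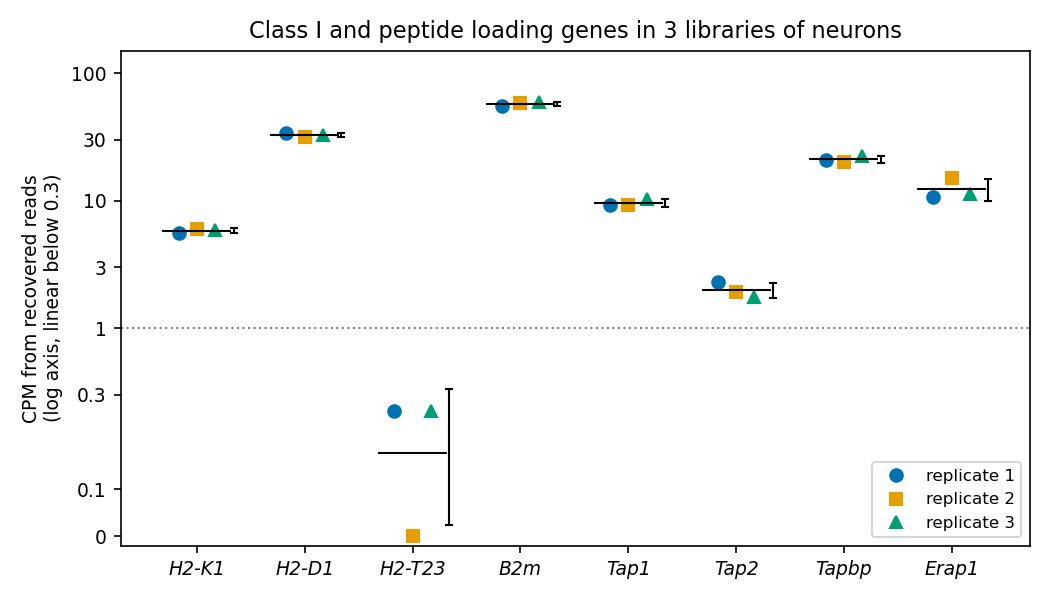
CPM of the 8 members in replicates 1, 2 and 3 (coloured points; the vertical axis is logarithmic and linear below 0.3), with the mean as a line and the SD as a bar beside it; the dotted line marks 1 CPM. B2m and H2-D1 stand highest, H2-T23 has no reads in replicate 2, and Erap1 is higher in replicate 2 than in the other libraries.

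The 2 subunits of the peptide transporter were unequal. Tap1 had 172, 173 and 195 reads (9.58 ± 0.65 CPM, SD, n = 3) and Tap2 43, 36 and 33 reads (1.99 ± 0.28 CPM). Tap1 was highest in replicate 3, where Tap2 was lowest, but for neither gene did the libraries differ beyond counting error (adjusted p = 0.689 for Tap1 and 0.759 for Tap2, chi-square test over all genes). Per kilobase Tap1 exceeded Tap2 by 1.13 ± 0.17 log2 units with 0.5 added to each level, an amount about as large as the level of Tap2. The ratio was 1.57 with 0.1 added, 0.29 with 5 added and 2.02 without length scaling, so that its size did not hold. An equal amount added to both levels cannot change the direction, which held without length scaling. At 0.526 ± 0.07 CPM per kilobase Tap2 lay above only 4.98% of detected protein-coding genes, and Tap1 (1.75 ± 0.12) above 19.1%.

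Tapbp, the gene of the tapasin bridge, was expressed above both transporter genes. It had 394, 372 and 421 reads and 21.1 ± 1.19 CPM (SD, n = 3), and its 5.80 ± 0.33 CPM per kilobase lay above 45.2% of detected protein-coding genes. Tapbp exceeded Tap1 by 1.49 ± 0.04 log2 units and Tap2 by 2.62 ± 0.15. With 0.1 added these were 1.68 and 3.24, and with 5 added 0.68 and 0.97. It exceeded Tapbpl, the gene of a tapasin relative that edits peptides without binding the transporter, by 2.64 ± 0.20 (3.29 with 0.1 and 0.97 with 5 added), with 29, 20 and 19 reads for Tapbpl.

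Erap1, which shortens peptides to the length that class I grooves hold, had 202, 283 and 211 reads. These are 10.8, 15.1 and 11.2 CPM (12.4 ± 2.42, SD, n = 3), and replicate 2 stands above the others. Its level of 1.70 ± 0.33 CPM per kilobase could not be told from that of Tap1, with a ratio of −0.04 ± 0.25 on the log2 scale that was positive in replicate 2 and negative in the other libraries. Erap1 exceeded Lnpep, the gene of an aminopeptidase that trims peptides in endosomes, by 0.99 ± 0.23 log2 units (1.36 with 0.1 and 0.26 with 5 added).

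Exons of these genes overlap exons of others on either strand, and it is not stated whether counting used the strand, so that reads from such stretches cannot be told apart. The share of exon bases concerned was 29.0% for Tapbp (the antisense RNA Gm19412, with 1 read in all, and Zbtb22, on the same strand, with 672, 582 and 625 reads, more than Tapbp itself), 18.5% for Tap2 (Gm15821, with 3 reads, and Gm20496, with none), 11.5% for Erap1 (Cast, with 49, 44 and 67 reads) and 3.87% for Tap1 (Psmb9). For Tapbp, 904 of the shared exon bases lay in Gm19412 and 149 in Zbtb22. The 3 heavy chain members and B2m had no such overlap. Whether reads from the bases shared with Cast bear on Erap1 in replicate 2, where it was highest, was not tested.

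Ordered by level per kilobase, the members ran B2m, H2-D1, Tapbp, H2-K1, Tap1, Erap1, Tap2 and H2-T23. Neighbours were called apart where the log2 difference had the same sign in every library and exceeded 2 SD. That held for each step except Tap1 to Erap1, and narrowly for H2-K1 to Tap1, at 0.14 ± 0.07 (0.13, 0.21 and 0.08 in replicates 1, 2 and 3). The order depends on length: without length scaling Erap1 took place 4 and H2-K1 place 6. With exon bases shared with other genes left out, an alternative added after seeing the data, Erap1 took place 5 and Tap1 place 6.

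**Figure D2:**
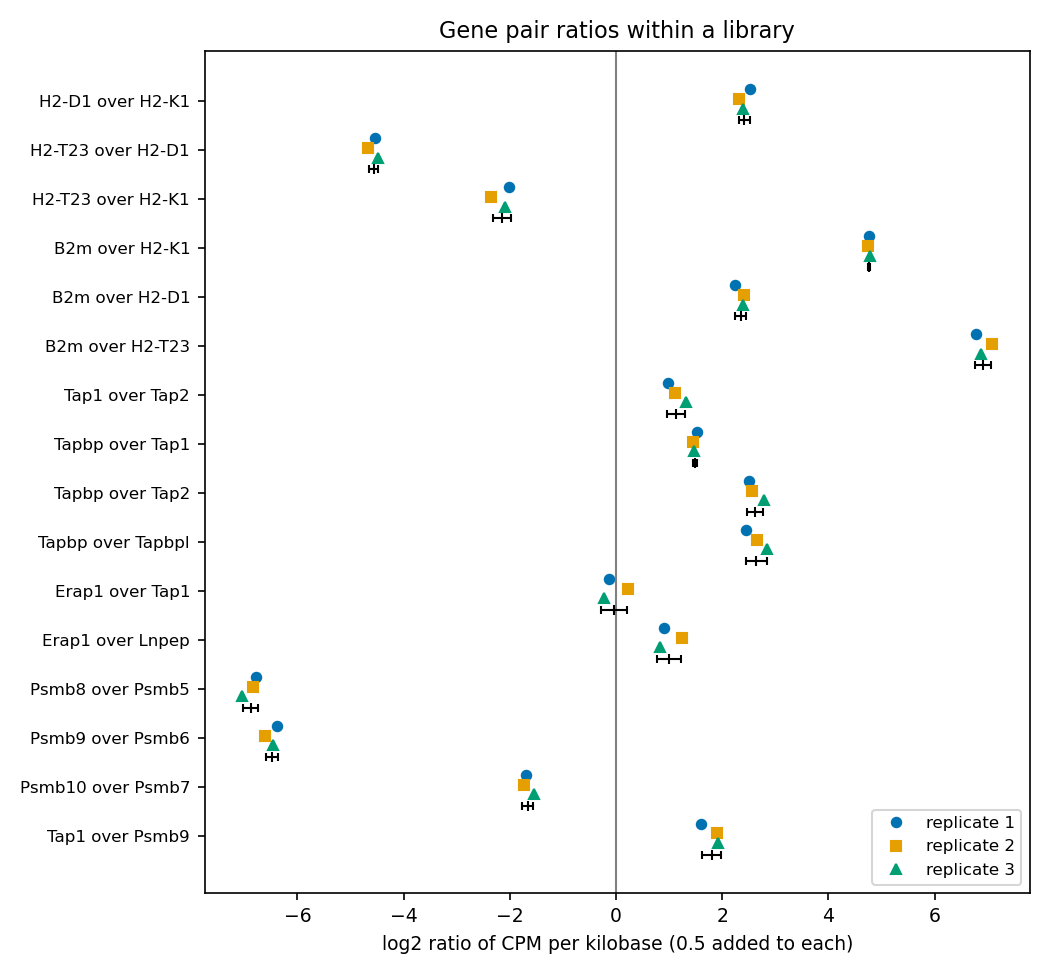
Log2 ratio of CPM per kilobase for 16 gene pairs within each library (coloured points), with the mean and SD in black under the points; positive values mean that the first gene is higher. Only Erap1 over Tap1 lies on both sides of 0.

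In 10 of the 16 gene pairs compared the first gene was higher in every library, in 5 the second, and in Erap1 over Tap1 neither. An exact permutation test that flips signs, two-sided, gave a p of 0.25 for each of the 15 pairs with 1 direction (Benjamini-Hochberg adjusted over the pairs, 0.267) and 1 for Erap1 over Tap1. With 3 libraries 0.25 is the smallest p possible, so that no pair could pass 0.05.

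Other heavy chain genes of the H2 region were mostly silent or near silent. Of 19 looked up, 18 were in the files and 5 were detected, a share of 27.8% beside 58.3% of protein-coding genes. The count was 7 at 0.5 CPM, 4 at 2 CPM and 7 in deposited values. H2-T24 was highest, at 8.77 ± 0.20 CPM and 4.02 ± 0.09 CPM per kilobase (162, 168 and 164 reads), above H2-K1 in level per kilobase. H2-Bl (46, 47 and 50 reads) and H2-T22 (86, 76 and 76 reads) followed; 44.7% of the 50-base stretches of H2-T22 occur in other genes, mostly in H2-T10, so its level is uncertain. H2-M3, which presents formylated peptides, had 25, 25 and 19 reads. No reads at all were found for H2-T3, H2-M9 and H2-M11. Of 5 class I-like genes whose products also bind beta-2-microglobulin, 4 were detected, with Cd1d1, which presents lipids, at 3.28 ± 0.41 CPM, the neonatal Fc receptor gene Fcgrt at 1.93 ± 0.33 and the iron regulator gene Hfe at 55, 41 and 45 reads.

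Most chaperone genes lay above each member other than B2m. All 7 listed genes of heavy chain folding and loading were detected, beside 58.3% of protein-coding genes. Among them were Pdia3 (ERp57, a partner of tapasin) at 67.9 ± 0.49, Hspa5 at 60.8 ± 1.64 and Canx (calnexin) at 59.6 ± 1.18 CPM per kilobase, with a list median of 57.3. The lowest were Uggt1, a sensor of misfolded glycoproteins, at 8.37 ± 0.21, below H2-D1, and Tapbpl at 0.513 ± 0.12 CPM per kilobase, close to Tap2 and below the other members except H2-T23. The median of the 8 members was 1.87 CPM per kilobase, against 6.81 for all detected protein-coding genes. All 5 further peptidase genes were detected, led by Npepps at 22.96 ± 0.54, Nrd1 at 19.2 ± 0.19 and Thop1 at 11.96 ± 0.51 CPM per kilobase, above Erap1 in each case.

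Of the genes that form the immunoproteasome, which replaces the standard catalytic subunits under interferon, Psmb10 was expressed and Psmb8 and Psmb9 were nearly absent. Psmb8 had 13, 7 and 3 reads and Psmb9 15, 6 and 9 reads, both under 1 CPM in every library, whereas Psmb10 had 248, 240 and 258 reads (13.2 ± 0.41 CPM, SD, n = 3). Psmb8 lay below its standard counterpart Psmb5 (−6.88 ± 0.14 log2 units) and Psmb9 below Psmb6 (−6.48 ± 0.12). Psmb10 lay below Psmb7 (−1.66 ± 0.10), a smaller distance than in the other pairs. The first 2 ratios were −8.42 and −7.89 with 0.1 added and −3.92 and −3.59 with 5 added. Of 50-base stretches, 57.1% for Psmb5 and 28.1% for Psmb7 occur in other genes, and these levels are uncertain. The activator genes Psme1 and Psme2 reached 40.1 ± 0.98 and 24.1 ± 2.13 CPM.

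Tap1 and Psmb9 are neighbours that start in opposite directions, and 225 of the 250 upstream bases of Tap1 also lie in the upstream window of Psmb9. Tap1 nevertheless had 172 to 195 reads per library and Psmb9 6 to 15, and Tap1 exceeded it per kilobase by 1.81 ± 0.18 log2 units (2.95 with 0.1 and 0.39 with 5 added).

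**Figure D3:**
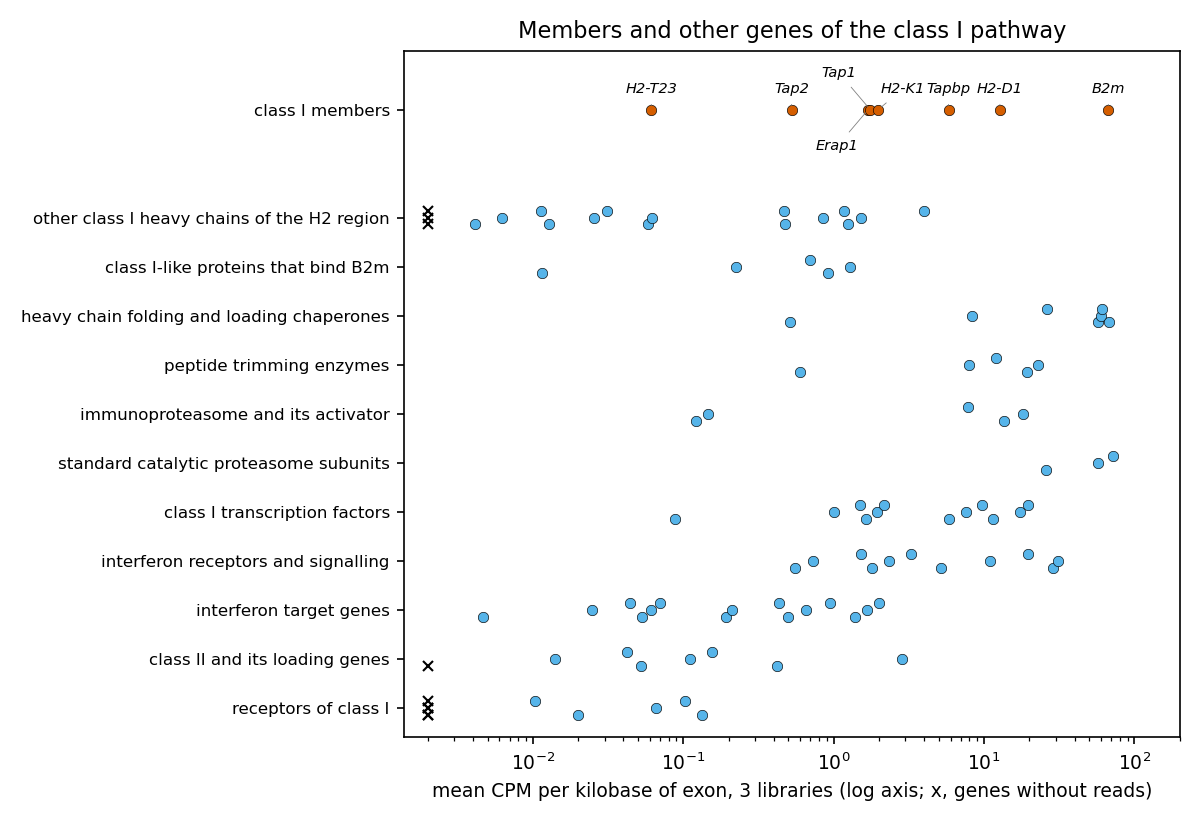
Mean CPM per kilobase over the 3 libraries (logarithmic axis) of the 8 members, in orange and by name, and of other genes of the class I pathway, in blue by list; crosses mark genes without reads. Chaperones and standard proteasome subunits lie mostly above each member other than B2m, whereas class II genes, interferon targets and receptors of class I lie mostly below 1 CPM per kilobase.

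Regulators of class I genes were detected with the exception of Nlrc5, a transactivator of class I genes. Nlrc5 had 13, 19 and 10 reads (0.746 ± 0.25 CPM, SD, n = 3) and passed 1 CPM in replicate 2 only (1.02 CPM). At 1 CPM the other 11 of 12 transcription factor genes were detected (91.7% of the list, beside 58.3% of protein-coding genes), and at 0.5 CPM all 12. They were led per kilobase by Nfyc (19.7 ± 0.94), Rfxap (17.4 ± 0.25) and Rela (11.4 ± 0.58 CPM per kilobase), and Irf1, an interferon-induced activator, had 71, 89 and 64 reads. All 11 genes of interferon receptors and signalling were detected, led by Ifngr2 (31.2 ± 0.72), Jak1 (28.7 ± 0.44) and Jak2 (19.7 ± 0.58 CPM per kilobase).

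Targets of interferon were low. Of 15, 5 were detected (33.3%, beside 58.3% of protein-coding genes), with Ifi27 at 2.95 ± 0.28, Ifit2 at 6.52 ± 0.98 and Cxcl10, a chemokine gene, at 3.11 ± 0.13 CPM. Ifit1, Isg15, Rsad2 and Mx1 had 8, 21, 6 and 1 reads over the 3 libraries. Of 8 class II and class II loading genes only H2-DMa was detected (9.81 ± 1.00 CPM, SD, n = 3), with 40 reads for Cd74, 17 for H2-Eb1 and none for H2-Oa. None of 10 receptor genes for class I was detected: Pirb, a receptor through which class I acts on neurons in mice, had 6, 9 and 11 reads, Cd160 4, 5 and 11, and Klra2 6, 0 and 1. Cd3e, Cd8a, Klrk1, Klrd1 and Klrc1 had no reads.

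The libraries held RNA of more than neurons, and in bulk RNA fewer cells of a type and less RNA per cell cannot be told apart. Of protein-coding genes 58.3% were detected, the share to set beside the counts that follow. All 8 pan-neuronal genes were detected, with 0.677% to 0.682% of reads in each library and Mapt, Tubb3 and Stmn2 highest. The 8 astrocyte genes were detected too (0.190% to 0.192% of reads), led by Slc1a3, Aldoc and Gfap, and so were 7 of 8 oligodendrocyte lineage genes (0.0286% to 0.0303%), led by Olig1, Olig2 and Mog. Microglial and macrophage genes took 0.00104% to 0.00117% of reads, with 3 of 12 detected (Cd68, C1qa and C1qb) and Trem2 at 1 read in all, and mural and fibroblast genes 0.00581% to 0.00636%, with 5 of 8 detected (Acta2, Dcn and Pdgfrb highest). Of 8 endothelial genes Kdr was detected, with Esam and Pecam1 next at 58 and 42 reads in all, and Cldn5 had no reads. Of 6 T and natural killer cell genes none was detected, with 7 reads for Cd4 and 1 for Cd3g. The 8 members took 0.0138%, 0.0142% and 0.0144% of reads. Which of these cells the class I reads came from was not tested.

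The last comparison was between the libraries themselves. Of 7 members with a mean of 10 reads or more, 1 varied between libraries beyond counting error, Erap1, where 8.61% of 15129 genes did (Pearson chi-square on recovered reads, 2 degrees of freedom, Benjamini-Hochberg adjusted p under 0.05). Erap1 ranged 1.42-fold between libraries after scaling for depth, with scaled reads of 201, 285 and 211 in replicates 1, 2 and 3 (adjusted p = 0.0029, chi-square test over all genes). Without replicate 2 the range was 1.04-fold (adjusted p = 0.921), so the difference rests on that library. Of 3518 other genes with a mean within 2-fold of that of Erap1, 98.98% had a smaller range.

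Against the dispersion trend, the spread usual for genes of that abundance, 0.33% of genes passed and no member did in the same chi-square test (adjusted p = 0.232 for Erap1), while at an unadjusted p under 0.05 there was 1 member, again Erap1. The other 6 ranged from 1.07-fold (H2-D1) to 1.30-fold (Tap2). B2m ranged 1.08-fold, H2-K1 1.09-fold, Tapbp 1.12-fold and Tap1 1.14-fold, each with an adjusted p of 0.452 or more for counting error (chi-square over all genes).

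**Figure D4:**
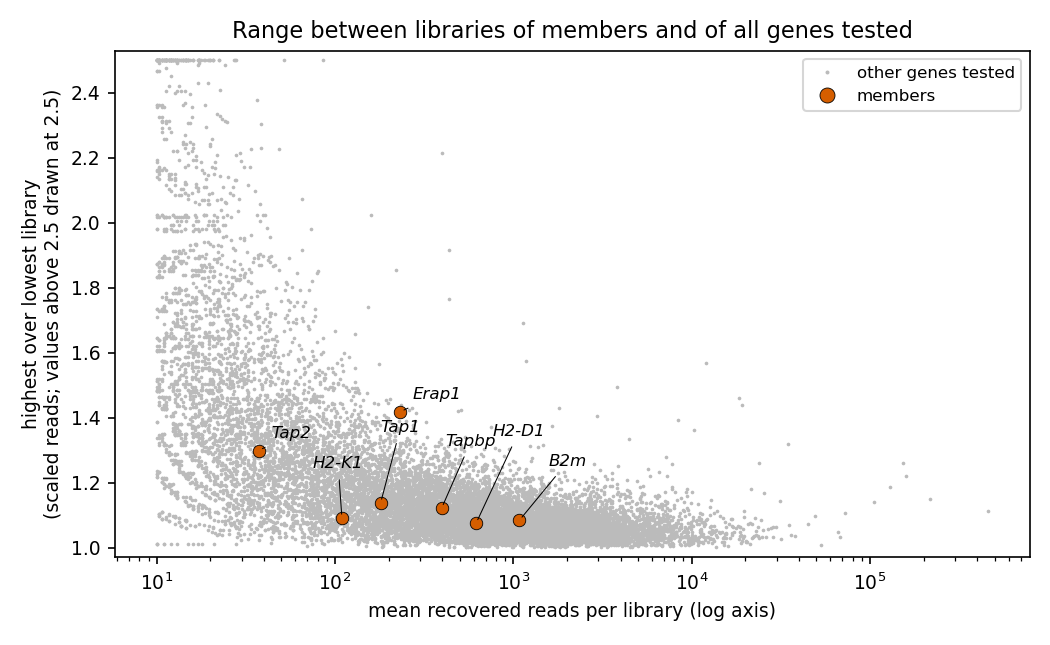
Highest over lowest library in scaled recovered reads against mean reads per library (logarithmic axis), for the 7 members with a mean of 10 reads or more (orange) and all other genes tested (grey; values above 2.5 are drawn at 2.5). Erap1, at 1.42, lies above most genes of its abundance and the other 6 members lie among them.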

How the data were processed

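The authors deposited 1 log2 value per gene and library. Per the submitters' processing notes, FastQC, HISAT2, featureCounts and DESeq2 were used on GRCm38, with versions and settings not given in the sources used here. In form, the values behaved as a regularized log: differences between libraries shrink, most for genes with few reads. Reads were recovered by inverting a ridge-penalised negative binomial fit (6 parameters, fitted on genes with a mean log2 value under 8). Of 67797 values, 99.4% came within 0.1 of a whole read (20% by chance), and 98.6% of values of the 9197 genes not used for fitting; for the members the distance was at most 0.0182 reads. Libraries held 18780611, 18683923 and 18885650 recovered reads in replicates 1, 2 and 3, so 3 reads are 0.159 to 0.161 CPM.

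Lengths and positions came from GENCODE M21 (union of exons). CPM are recovered reads per 1000000; ratios had 0.5 CPM per kilobase added. Between-library tests used median-of-ratios size factors and a dispersion trend set in 30 abundance bins, tested on simulated data (Python 3.11.15, scipy 1.17.1). Motif matching used RefSeq promoters of GRCm38.p6. The members, the 19 lists and the 16 pairs were chosen with earlier results of these data known. Named were all members, both genes of each pair, the 3 highest genes per kilobase of each list, class I pathway genes without reads and listed genes past the trend (none); H2-M3, H2-T10, Nlrc5, Irf1, Ifit1, Isg15, Rsad2, Mx1, H2-Oa, Uggt1, Trem2, Cldn5 and the genes whose exons overlap a member's were named after their values were seen. Of 164 listed genes, 1 was not found and 1 was found by an older symbol.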

Additional observations from a re-analysis of the deposited data

How the results depend on the processing

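Of 414 alternative values, 394 kept their direction or side of the threshold, or moved by less than 1 SD or 1.5 times. Leaving out 1 of 3 libraries cannot move a mean beyond 1 SD, and the deposited values are those from which the reads were recovered. The 32 level alternatives, all labelled the same, therefore tested little, and the share overstates how much was tested. Erap1 over Tap1 was not apart from 0 to begin with (−0.04). It reversed without length scaling (0.34), on exons not shared with another gene (0.049, added after seeing the data) and without replicate 1 or 3 (−0.18 to 0.050 without 1 library). The other pairs kept their sign throughout (140 of 144 pair alternatives in all). Where every library had 1 direction, neither an equal amount added to both levels nor leaving out 1 library can change the sign. For those pairs only the length, unshared-exon and deposited-value settings could have reversed it. Without length scaling H2-K1 moved to place 6 and Erap1 to place 4, and on unshared exons Tap1 to place 6 and Erap1 to place 5, with the reads the same. Detected genes numbered 2 (class I-like) and 1 (microglial) at 2 CPM, and 2 (class II), 7 (microglial) and 3 (endothelial) at 0.5 CPM; endothelial genes numbered 2 in deposited values. Genes beyond counting error numbered 1302, and 334 to 1187 without 1 library (334 without replicate 2, 834 without replicate 3); beyond the trend 50, and 7 to 29 (7 without replicate 1). The cause was not tested. No paired analysis was possible because the 3 libraries form 1 group. Among members and paired genes H2-T23, Psmb8 and Psmb9 had the fewest reads (10, 23 and 30 in all).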
